A study of Mus musculus with 2 samples.

Results

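C1ql3/Tll2 interneurons were GABAergic nuclei of the neonatal mouse cerebellum in which UMIs (unique molecular identifiers, 1 for each captured RNA molecule) of C1ql3 and Tll2 outnumbered those of Htr7, Kit and Itga8. They were chosen from the measured counts. A nucleus needed at least 1000 detected genes, a mitochondrial share of at most 5%, at least 2 UMIs of Gad1, Gad2 and Slc32a1 together, at most 2 of Calb1, Skor2 and Car8 together, and at least 2 of C1ql3 and Tll2 together. The rule found 106 nuclei among 4857 barcodes of the control library and 188 among 6946 barcodes of the library labelled cKO, 294 of 11803 in all. For each group, 12 cerebella of mice at postnatal day 1 (P1) were pooled and profiled as 1 single-nucleus RNA-seq library. The cKO animals carried Nestin-cre and were Tox3f/f, with the floxed allele on both chromosomes, and the controls were littermates without Cre. The sample label gives the controls as Tox3f/f, whereas the library's name gives Tox3f/f or Tox3f/+. Nestin-cre acts in neural precursors, so that the deletion is passed to neurons and glia at large and is not limited to interneurons.

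GABAergic interneurons of the cerebellum arise from Ptf1a-dependent precursors of the ventricular zone, and their immature forms express Pax2 while they migrate through the prospective white matter around birth. Golgi cells, the inhibitory interneurons of the granular layer, are born before the basket and stellate cells of the molecular layer, and many release glycine together with GABA, for which they use the glycine transporter Slc6a5. C1ql3 encodes a secreted C1q-like protein that binds the adhesion receptor Adgrb3 at synapses, Tll2 a tolloid-like metalloprotease, and Rgs6 an R7 regulator of G protein signalling.

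The promoters of both genes that chose the nuclei are shown beside that of Sst, the somatostatin gene by which the nuclei were later divided. Each is the 250 bases before the RefSeq transcription start (GRCm38.p6, minus strand, read 5′ to 3′), at chr2:13010865-13011114 for C1ql3, chr19:41206775-41207024 for Tll2 and chr16:23890845-23891094 for Sst. The motifs searched were CAGCTG, an E-box of basic helix-loop-helix factors, GCCNNNGGC, a site of AP-2 factors, and TGACGTCA, the cAMP response element. Each reads the same on both strands, and capitals mark a match.
C1ql3: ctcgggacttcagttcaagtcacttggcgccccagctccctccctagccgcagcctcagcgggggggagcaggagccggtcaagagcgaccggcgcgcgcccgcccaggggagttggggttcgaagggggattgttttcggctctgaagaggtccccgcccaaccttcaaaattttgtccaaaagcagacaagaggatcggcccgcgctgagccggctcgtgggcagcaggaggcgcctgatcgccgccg
Tll2: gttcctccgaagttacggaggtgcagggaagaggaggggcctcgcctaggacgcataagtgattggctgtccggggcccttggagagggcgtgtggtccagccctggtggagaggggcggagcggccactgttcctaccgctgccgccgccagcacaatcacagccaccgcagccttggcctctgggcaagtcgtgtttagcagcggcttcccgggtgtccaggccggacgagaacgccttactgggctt
Sst: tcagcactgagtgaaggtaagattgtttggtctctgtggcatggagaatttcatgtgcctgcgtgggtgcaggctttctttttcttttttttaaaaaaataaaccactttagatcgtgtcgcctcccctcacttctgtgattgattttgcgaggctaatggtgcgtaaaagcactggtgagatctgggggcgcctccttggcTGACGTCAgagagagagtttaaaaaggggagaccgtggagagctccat
The 1 match was TGACGTCA in the Sst promoter, which began 48 bases before the start. Of 32851 promoter windows of this length, 1.55% held TGACGTCA, 13.0% CAGCTG and 13.7% GCCNNNGGC.

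The label of these nuclei was first compared with marker genes. Levels are given as CPM, the UMIs of a gene per 1000000 UMIs of all nuclei of a class in a library, and every interval is an exact 95% interval that covers counting error only. C1ql3 was seen in 96 of 106 control nuclei and in 160 of 188 nuclei labelled cKO, and Tll2 in 73 and 141. Both were seen in 63 and 113 nuclei, C1ql3 alone in 33 and 47, and Tll2 alone in 10 and 28. Gad1, which encodes the GABA-synthesising enzyme GAD67 and was part of the rule, was at 524 CPM (475 to 575) in the control and 507 CPM (470.2 to 546) in the library labelled cKO.

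Rgs6, which the rule did not use, was at 934 CPM (869 to 1002) in the control and 1061 CPM (1007 to 1117) in the library labelled cKO, with UMIs in 89.6% and 88.8% of nuclei. Htr7/Kit interneurons here were GABAergic nuclei with at least 2 UMIs of Htr7, Kit and Itga8 together, more than of C1ql3 and Tll2. These 270 and 582 nuclei held Rgs6 at 223 and 190.1 CPM, with UMIs in 27.4% and 24.7%. When every nucleus was thinned to 2000 UMIs, the shares were 70.1% and 73.3% in C1ql3/Tll2 and 17.3% and 15.5% in Htr7/Kit interneurons. Pax2, the transcription factor of immature cerebellar interneurons, was seen in 93.4% and 88.8% of C1ql3/Tll2 and 85.9% and 83.2% of Htr7/Kit nuclei. As a background for free RNA, 51 and 155 microglia and macrophage nuclei, set after the data were seen as those with at least 5 UMIs of 6 myeloid genes, held Rgs6 UMIs in 5.88% and 7.74% and Pax2 UMIs in 0% and 4.52%. Their median depths were 3142 and 2784 UMIs, below the 7207 and 6788 UMIs of C1ql3/Tll2 nuclei.

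Slc6a5 did not set these nuclei apart, although it is among the markers that come with their label. It was at 55.4 CPM (40.5 to 73.8) in the control and 54.4 CPM (42.8 to 68.2) in the library labelled cKO, and at 110.1 and 121 CPM in Htr7/Kit interneurons. UMIs of Slc6a5 were present in 29.2% and 26.6% of C1ql3/Tll2 nuclei and in 41.9% and 41.6% of Htr7/Kit nuclei, and after thinning in 10.8% and 9.78% and in 20.4% and 22.6%. In microglia they were present in 0 of 51 nuclei, which allows a share of up to 6.98%, and in 1.29% of 155. C1ql3, Tll2, Rgs6, Slc6a5 and Gad1 were seen together in 15.1% of control nuclei and 14.4% of those labelled cKO. Gad1 was part of the rule, so that its presence is no finding, and the glycinergic marker was seen in a minority of nuclei.

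**Figure D1:**
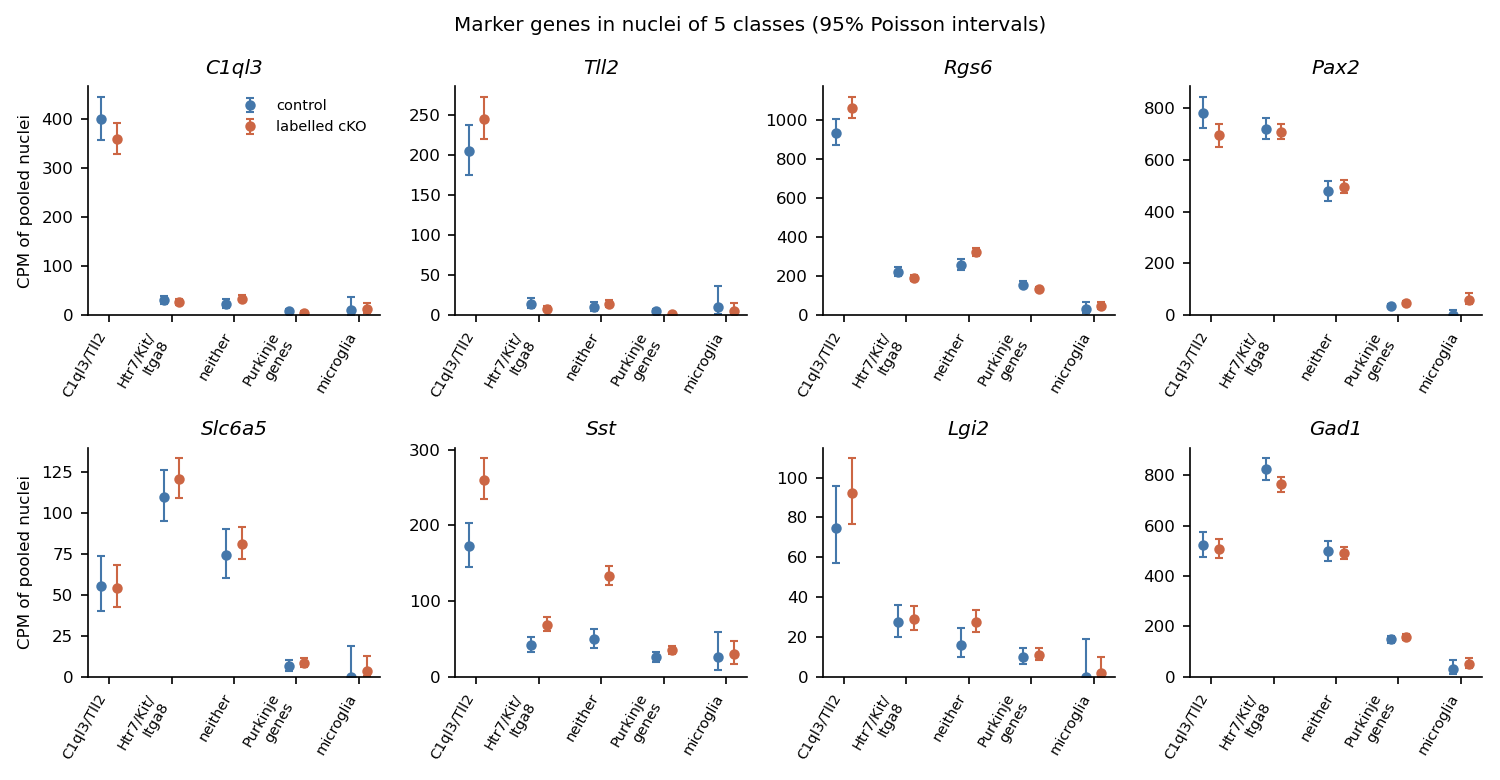
CPM of 8 genes (y axes, from 0) in 5 classes of nuclei, for the control and the library labelled cKO, with bars for 95% Poisson intervals of counting error; C1ql3, Tll2 and Gad1 were used to choose nuclei. Rgs6 was at 934 and 1061 CPM in C1ql3/Tll2 nuclei and 223 and 190.1 CPM in Htr7/Kit/Itga8 nuclei, and Slc6a5 was higher in the latter.

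Just outside the rule, with 1 UMI of C1ql3 or Tll2 and none of Htr7, Kit and Itga8, lay 8 and 42 nuclei, which held Rgs6 at 759.9 and 683 CPM. The 17 and 32 nuclei just inside, with 2 UMIs, held it at 605 and 1122 CPM. GABAergic nuclei with no UMI of these 5 genes held it at 185 and 199 CPM. A further 24 and 52 nuclei had at least 2 UMIs of C1ql3 and Tll2 but as many or more of Htr7, Kit and Itga8, and held it at 619.8 and 680.3 CPM. Among the chosen nuclei, 34 of 106 and 79 of 188 had no UMI of Htr7, Kit or Itga8. Kit, a receptor tyrosine kinase gene of molecular layer interneurons, supplied most of the others, at 148 and 129 CPM, whereas Htr7 gave 2 UMIs in the control and 0 in the library labelled cKO.

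Genes that were higher than in Htr7/Kit interneurons in both libraries included adhesion molecules and receptors. With both libraries summed, 204 of 8620 measured genes (2.37%) were at least 2-fold higher and 358 (4.15%) at least 2-fold lower. These are descriptions of nuclei chosen from the same counts and were not tested. Igsf11, an immunoglobulin superfamily adhesion molecule, was at 69.8 and 66.7 CPM against 10.2 and 13.0 CPM. Ptprm, a receptor tyrosine phosphatase that binds itself between cells, was at 1136 and 1051 CPM against 228 and 208 CPM. Nr3c1, the glucocorticoid receptor, was at 380.3 and 358 CPM against 85.7 and 71.0 CPM. These genes are not specific to interneurons. Pard3, a cell polarity scaffold, was at 433 and 565 CPM against 115 and 113 CPM. Gabrg1, a gamma subunit of the GABA-A receptor, was at 61.4 and 62.4 CPM against 11.4 and 14.0 CPM. The rest of the highest 15 by pooled ratio were Tll2, C1ql3, Rgs6 and the loci 1700016K05Rik, Gm29530, 4930587E11Rik, Gm45554, Gm15413, Gm20713 and 9330158H04Rik.

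Among genes known from Golgi cells, 3 were higher in these nuclei. Sst was at 172 and 260.5 CPM against 41.4 and 68.9 CPM, and in microglia at 25.5 and 29.5 CPM. Lgi2, which encodes a secreted leucine-rich protein, was at 74.6 and 92.1 CPM against 27.2 and 28.8 CPM, and Chrm2, the M2 muscarinic receptor gene, at 427 and 400.5 CPM against 130.0 and 124 CPM. Grm2, Gjd2, Nrgn and Npy were at 15.6 CPM or below in both libraries, and Slc6a5 was lower, as given above. Against all other kept nuclei, 493 of 15794 genes (3.12%) were at least 2-fold higher and 2610 (16.5%) at least 2-fold lower. Lgi2 was 7.83-fold and 7.57-fold higher, and Etl4 7.62-fold and 7.47-fold. Sgcd, a sarcoglycan gene, was at 6976 and 6950 CPM and was 9.14-fold and 6.54-fold higher.

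Some receptor and release genes were higher. Gabra2, an alpha subunit of the GABA-A receptor, was 4.21-fold higher than in Htr7/Kit interneurons in the control and 4.02-fold higher in the library labelled cKO. The presynaptic glutamate receptor genes Grm8 and Grm7 were 2.79-fold and 3.81-fold higher in the control and 3.41-fold and 2.77-fold higher in the other library. Syt1, the calcium sensor of vesicle release, was 2.89-fold and 2.63-fold higher.

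Among the genes lower than in Htr7/Kit interneurons was Nfib, a nuclear factor I gene, at 368 and 286 CPM against 2013 and 2014 CPM. Zfhx3 and Meis2, homeobox genes, were at 12.0 and 28.3 CPM against 167 and 157 CPM and at 12.0 and 23.2 CPM against 144 and 115 CPM. Ntn1, the guidance ligand netrin-1, was at 21.7 and 9.43 CPM against 163 and 107 CPM, and Epha5, an ephrin receptor, at 19.3 and 26.8 CPM against 174 and 169 CPM. Ptprt, a receptor phosphatase, was at 59.0 and 134 CPM against 1001 and 1030 CPM. Proliferation genes were sparse: Mki67 was seen in 14 and 11 nuclei and Top2a in 6 and 8. Ptf1a and Neurog1, genes of GABAergic progenitors, had no UMI.

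**Figure D2:**
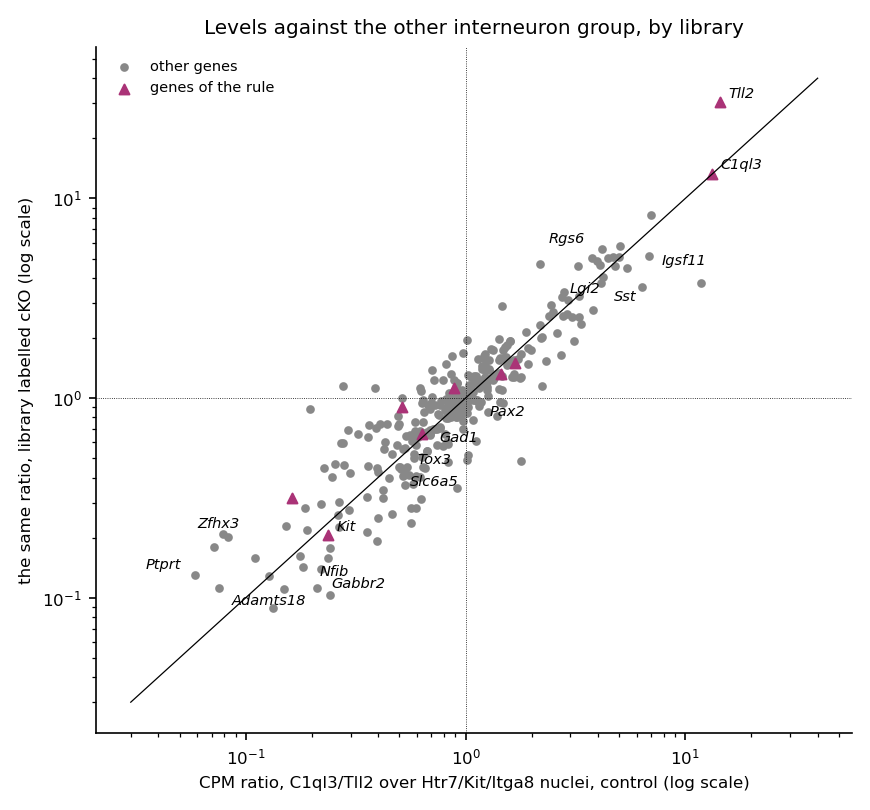
CPM ratio of C1ql3/Tll2 over Htr7/Kit/Itga8 nuclei in the control (x axis, log scale) and in the library labelled cKO (y axis, log scale) for 322 genes of the gene lists and of the profile; triangles are genes of the rule and the line is equality. Rgs6, Igsf11 and Sst lay above 3 in both libraries, and Ptprt and Nfib at 0.0589 and 0.183 in the control and 0.130 and 0.142 in the other.

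The nuclei were not uniform. Sst and Slc6a5 tended to be seen in different nuclei, a split that was chosen after the data were seen. In the control, Sst was seen in 7 of 31 (22.6%, 9.59 to 41.1%) nuclei with Slc6a5 and in 45 of 75 (60%, 48.0 to 71.1%) without it. In the library labelled cKO, it was seen in 19 of 50 (38.0%, 24.7 to 52.8%) with Slc6a5 and in 86 of 138 (62.3%, 53.7 to 70.4%) without it. Neither gene was seen in 30 and 52 nuclei. Median depths were 7369 and 7040 UMIs with Slc6a5 alone and 7780 and 6672 UMIs with Sst alone. At these depths a nucleus without UMIs of a gene may still have expressed it.

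The 24 and 31 nuclei with Slc6a5 alone were compared with the 45 and 86 nuclei with Sst alone. Adarb2, a gene of the RNA-editing family, was at 3455 against 579 CPM in the control and 3471 against 1058 CPM in the library labelled cKO. Pbx3, a homeodomain cofactor, was at 2233 against 403 CPM and 2007 against 367 CPM, and Esrrg, an orphan nuclear receptor, at 679 against 268 CPM and 612 against 249.8 CPM. Within these nuclei, C1ql3 followed the same direction at 498 against 306 CPM and 505 against 309 CPM, as did Kit at 221 against 108 CPM and 248 against 86.5 CPM. Gad1 was 1.59-fold (1.25 to 2.01) and 1.60-fold (1.31 to 1.96) higher with Slc6a5 alone. Gad2 did not follow, with a ratio of 0.981 (0.748 to 1.28) in the control. In the library labelled cKO it was 1.93-fold (1.47 to 2.58) lower with Slc6a5 alone. Both are genes of the rule, which sets a minimum on their sum with Slc32a1.

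In the opposite direction, Rmst, a long noncoding RNA of neural cells, was at 327 against 60.3 CPM in the control and 649.8 against 59.9 CPM in the library labelled cKO, with the level in nuclei with Sst alone given first. Sgcz, another sarcoglycan gene, was at 2736 against 1167 CPM and 3703 against 1558 CPM. Ebf3, a helix-loop-helix factor, was at 435 against 181 CPM and 462 against 141 CPM, and Foxp2, a forkhead factor, at 184 against 85.5 CPM and 338 against 111 CPM. Tll2 was at 265 against 111 CPM and 331 against 149.8 CPM, whereas C1ql3 was higher with Slc6a5 alone. As the rule sets a limit on the sum of C1ql3 and Tll2, a nucleus low in one had to hold more of the other, so that the selection fixes part of this contrast. Nuclei chosen through Tll2 alone held Sst at 411 and 378 CPM and Slc6a5 at 0 and 10.1 CPM. Those chosen through C1ql3 alone held Sst at 79.3 and 191 CPM and Slc6a5 at 95.1 and 105 CPM.

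**Figure D3:**
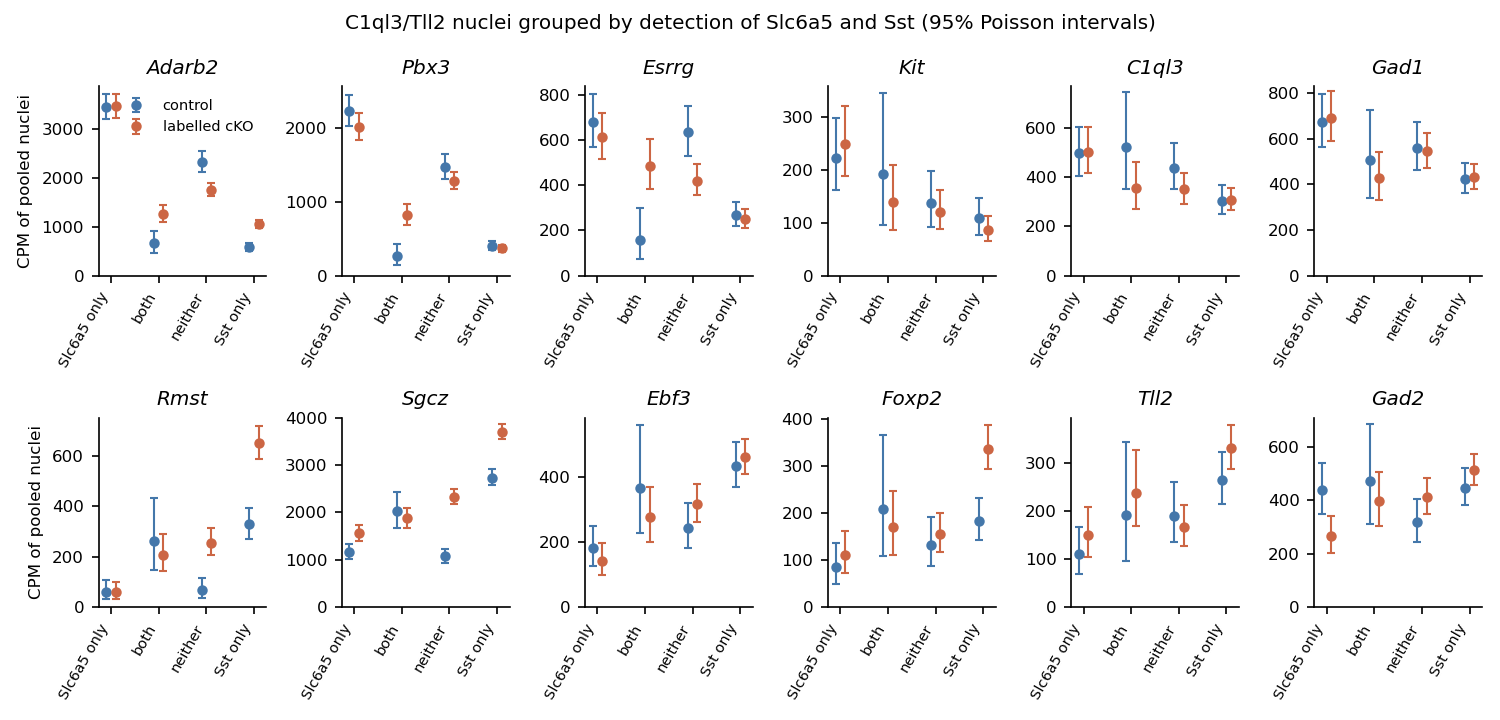
CPM of 12 genes (y axes, from 0) in C1ql3/Tll2 nuclei grouped by whether UMIs of Slc6a5 and Sst were seen, for the control and the library labelled cKO, with 95% Poisson intervals. Adarb2 and Pbx3 were higher with Slc6a5 alone than with Sst alone, and Rmst, Sgcz and Tll2 were lower, in both libraries.

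Abundance was compared first between the libraries. C1ql3/Tll2 interneurons made up 106 of 3816 kept nuclei in the control, 2.78% (2.28 to 3.35%), and 188 of 6217 in the library labelled cKO, 3.02% (2.61 to 3.48%). The ratio of these shares was 1.09 (0.853 to 1.39). Of GABAergic nuclei outside Purkinje cells they were 106 of 592, 17.9% (14.9 to 21.2%), and 188 of 1387, 13.6% (11.8 to 15.5%). That share was 1.32-fold (1.03 to 1.68) lower in the library labelled cKO. With Htr7, Kit and Itga8 required at 0, its ratio was 0.992 (0.656 to 1.53). The denominator moved beside it: GABAergic nuclei outside Purkinje cells were 15.5% and 22.3% of kept nuclei, and those of neither interneuron class 5.66% and 9.92%. With 1 pooled library a group, no test over animals was possible, and genotype, pool and library cannot be told apart.

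Expression was compared next, starting with Tox3, a high mobility group transcription factor and the targeted gene. It gave 35 UMIs in 24 control nuclei, 42.1 CPM, and 44 UMIs in 33 nuclei labelled cKO, 31.9 CPM, a ratio of 0.758 (0.475 to 1.22). Htr7/Kit interneurons held Tox3 at 81.2 and 78.5 CPM, microglia at 20.4 and 39.9 CPM and all kept nuclei at 108 and 122 CPM. UMIs of a 3′ assay need not lie in the floxed part of the gene, whose position is not used here, so that they do not check the genotype. Over all kept nuclei Tox3 was not lower in the library labelled cKO, and that library is therefore named by its label throughout. Every direction given here between the libraries rests on that label. Over all other kept nuclei, 7 granule progenitor genes with Atoh1 among them summed to 500 and 220 CPM. In bulk RNA-seq of P1 cerebella, the authors report lower Atoh1 in the mutant. For these single-nucleus libraries they likewise describe Atoh1 as nearly lost in the mutant, with a smaller share of granule progenitors. By quantitative PCR of P1 cerebella they report a near-complete loss of Tox3 RNA in the mutant. Whether the labels are right was not tested. The paralogues Tox and Tox4 had ratios of 0.904 (0.629 to 1.31) and 1.09 (0.760 to 1.59), and Tox2 gave 6 and 5 UMIs.

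When genes with 100 or more UMIs in total were compared, 83 of 3992 (2.08%) were at least 1.5-fold higher in the library labelled cKO and 70 (1.75%) at least 1.5-fold lower, 3.83% in either direction. The counting interval of the ratio lay above 1 for 256 genes (6.41%) and below 1 for 259 (6.49%), and the median log2 ratio was -0.00. These counts compare 2 pools and hold no error between animals. An interval narrows as the UMIs of a gene rise, so that in a highly expressed gene a ratio close to 1 can have an interval without 1. The shares over all genes are not matched for UMIs to the gene lists set beside them below. The genes named next are the 12 in each direction whose interval lay farthest from 1.

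**Figure D4:**
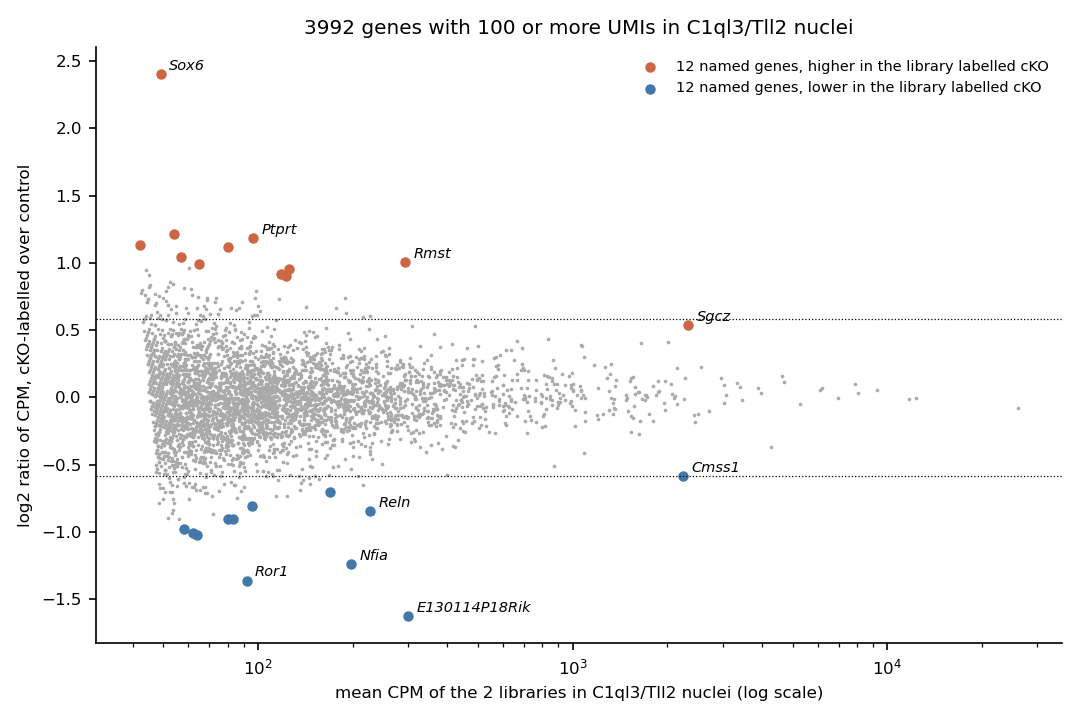
Log2 ratio of CPM, library labelled cKO over control (y axis), against mean CPM (x axis, log scale) for 3992 genes in C1ql3/Tll2 nuclei, with dotted lines at 1.5-fold. Of these genes 83 lay above the upper line and 70 below the lower, with Sox6 the highest at a ratio of 5.29 and E130114P18Rik the lowest at 0.324.

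Rmst (chr10:92071037-92165170, minus strand, GRCm38) was higher in the library labelled cKO. It gave 162 UMIs in 51 of 106 control nuclei (48.1%) and 540 UMIs in 106 of 188 nuclei labelled cKO (56.4%). The 11 and 19 richest nuclei held 51.2% and 52.0% of these UMIs, and the most in 1 nucleus was 14 and 38. The levels were 195 and 392 CPM, a ratio of 2.01 (1.68 to 2.41), and the ratio in Htr7/Kit interneurons was 1.29 (1.15 to 1.45). Over all other kept nuclei Rmst was at 270 and 357 CPM. Within nuclei with Sst alone the ratio was 1.99 (1.62 to 2.46), and within those with Slc6a5 alone 0.993 (0.426 to 2.35). In nuclei with neither gene Rmst was higher too, at 68.3 and 255 CPM (14 and 95 UMIs). In nuclei with both genes it was at 262 and 207 CPM. Differences between these groups were not tested.

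Among genes of the Sst-bearing nuclei, Sgcz, Sst and Foxp2 were higher, whereas others were not. Sgcz was at 1900 and 2755 CPM, a ratio of 1.45 (1.37 to 1.54), beside 1.03 (0.954 to 1.11) in Htr7/Kit interneurons. Over all other kept nuclei it was also higher, at 527 and 726 CPM. In an alternative, only the counts used by the rule were thinned to 2000 UMIs per nucleus, which left about 29 and 50 nuclei. Levels in the nuclei chosen by a random draw were still taken from all their UMIs. With the rule applied after thinning in this way, the ratio of Sgcz turned to 0.938 (0.827 to 1.07). Sst had a ratio of 1.51 (1.24 to 1.85) and was seen in 52 and 105 nuclei, and its ratio in Htr7/Kit interneurons was 1.66 (1.27 to 2.20). Sst was also at 29.2 and 60.9 CPM over all kept nuclei, these classes included, and at 25.5 and 29.5 CPM in microglia, and the part of free RNA was not tested. Foxp2 had a ratio of 1.55 (1.25 to 1.92), and 1.40 (1.20 to 1.63) in Htr7/Kit interneurons. It is also on the list of Purkinje cell markers, which without the rule's genes summed to 4070 and 5634 CPM over all other kept nuclei. GABAergic nuclei with Purkinje genes were 5.82% and 8.53% of kept nuclei. Of C1ql3/Tll2 nuclei, 84.9% and 73.9% had no UMI of Calb1, Skor2 or Car8. The part of Purkinje cell RNA in the Foxp2 ratio was not tested. The share of nuclei with Sst alone was 42.5% (32.9 to 52.4%) in the control and 45.7% (38.5 to 53.2%) in the library labelled cKO. Within these nuclei the ratios were 1.35 (1.26 to 1.46) for Sgcz and 1.84 (1.39 to 2.45) for Foxp2, and Adarb2, which was low there in the control, had 1.83 (1.56 to 2.14). The ratio there was 1.06 (0.872 to 1.30) for Ebf3, 1.01 (0.927 to 1.09) for Nxph1 and 0.827 (0.711 to 0.963) for Pax2. Sgcz was also higher in nuclei with neither Sst nor Slc6a5, at 1068 and 2325 CPM. In nuclei with both genes Sgcz was at 2027 and 1872 CPM.

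Samd4, Kif3c and Itgbl1 were higher, with ratios near 1 in Htr7/Kit interneurons. Samd4, an RNA-binding translational repressor, had a ratio of 1.89 (1.43 to 2.52) with UMIs in 37 and 98 nuclei, beside 0.965 (0.749 to 1.25) in Htr7/Kit interneurons. Kif3c, a kinesin motor subunit, gave 36 UMIs in 29 nuclei and 119 in 86, a ratio of 1.99 (1.36 to 2.98) beside 1.03 (0.841 to 1.27). Itgbl1, an integrin beta-like gene, had a ratio of 1.87 (1.42 to 2.48) beside 1.00 (0.829 to 1.21). Its UMIs were in 30 and 75 nuclei, of which the 11 and 19 richest held 64.8% and 56.8%, and its ratio was 1.24 (0.703 to 2.27) with the rule applied after thinning. Over all other kept nuclei Samd4 was at 64.5 and 80.3 CPM, Kif3c at 74.8 and 82.4 CPM and Itgbl1 at 111 and 107 CPM.

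Several other higher genes depended on the nuclei used. Pde4b, a cAMP phosphodiesterase, had a ratio of 1.94 (1.48 to 2.56), beside 1.18 (1.07 to 1.32) in Htr7/Kit interneurons. It turned to 0.814 (0.492 to 1.36) with the rule applied after thinning. Galnt18, a glycosyltransferase, had a ratio of 2.32 (1.51 to 3.69), and of 1.51 (0.774 to 3.18) with Htr7, Kit and Itga8 at 0. Gm41414, which was also high in these nuclei against all others, had a ratio of 2.06 (1.37 to 3.18). Ptprt had a ratio of 2.28 (1.65 to 3.19), and of 1.28 (0.454 to 4.10) with the rule applied after thinning. Wdr17 had a ratio of 2.17 (1.53 to 3.13), but of 1.06 (0.692 to 1.65) without the deepest nuclei, 1.47 (0.901 to 2.47) without the highest Scrublet scores, which rate likeness to simulated doublets, and 0.915 (0.437 to 2.02) with Htr7, Kit and Itga8 at 0. Il1rapl2, a synaptic adhesion gene, had a ratio of 2.19 (1.35 to 3.69) although it was seen in 17.0% of control nuclei and 12.2% of those labelled cKO. Its ratio turned to 0.580 (0.296 to 1.14) without the deepest nuclei and to 0.262 (0.0590 to 0.94) with the rule applied after thinning. Over all other kept nuclei Pde4b was at 287 and 416 CPM and Ptprt at 416 and 600 CPM. Wdr17 was there at 352 and 471 CPM and Il1rapl2 at 284 and 412 CPM. Galnt18 was at 72.9 and 72.0 CPM there and Gm41414 at 4.24 and 5.77 CPM.

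Sox6, a SoxD transcription factor gene, had the highest ratio, 5.29 (2.97 to 10.2), and rested on few nuclei. It gave 13 UMIs in 8 control nuclei and 114 UMIs in 23 nuclei labelled cKO, of which 27 came from 1 nucleus. Without nuclei of the highest scores from Scrublet its ratio was 1.20. With the rule applied after thinning, which left the levels themselves at full depth, it was 0.590. Over all other kept nuclei Sox6 was at 172 and 280 CPM.

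Nfia (chr4:97772734-98118874, plus strand), a nuclear factor I gene of glia and later-born neurons, gave 230 UMIs in the control and 162 in the library labelled cKO. Its levels were 277 and 118 CPM, 2.36-fold (1.92 to 2.90) lower. E130114P18Rik (chr4:97568133-97778078, minus strand) shares 5345 bases with Nfia on the opposite strand and was at 453 and 147 CPM, 3.09-fold (2.60 to 3.68) lower. How reads of the shared bases were counted is not given in the sources used here. Reln, the secreted glycoprotein reelin, was at 292 and 163 CPM, 1.80-fold (1.49 to 2.17) lower, and Ror1, a Wnt5a receptor gene, at 132 and 51.5 CPM, 2.57-fold (1.89 to 3.51) lower. Pcsk5, a proprotein convertase, was 2.03-fold (1.42 to 2.92) lower. In Htr7/Kit interneurons the ratios were 0.708 for Nfia, 0.840 for E130114P18Rik, 0.775 for Reln, 0.798 for Ror1 and 0.765 for Pcsk5. Lower levels were also seen over all other kept nuclei, Htr7/Kit interneurons included. Nfia was there at 1436 and 866 CPM, E130114P18Rik at 1579 and 816 CPM and Reln at 1329 and 834 CPM. Ror1 was at 409 and 305 CPM and Pcsk5 at 354 and 244 CPM. With Htr7, Kit and Itga8 required at 0, which left 34 and 79 C1ql3/Tll2 nuclei, the ratios were 0.161 for Nfia, 0.0762 for E130114P18Rik and 0.310 for Pcsk5. Without the deepest nuclei that of Ror1 was 0.958 (0.556 to 1.68).

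Reln, Ror1, E130114P18Rik, Pcsk5 and Sox6 were concentrated in a few nuclei rich in Nfia. Nuclei with at least 5 Nfia UMIs, a limit set after the data were seen, were 14 of 106 (13.2%, 7.41 to 21.2%) in the control and 10 of 188 (5.32%, 2.58 to 9.56%) in the library labelled cKO. They held 84.0% and 55.9% of the UMIs of E130114P18Rik, 81.8% and 52.1% of Ror1, 69.1% and 32.1% of Reln, 71.8% and 36.2% of Pcsk5 and 53.8% and 82.5% of Sox6. Their median depths were 11254 and 11975 UMIs, against 6554 and 6670 in the other C1ql3/Tll2 nuclei. Pax6, a transcription factor of the granule lineage, was at 162 and 157 CPM in them and 20.1 and 15.1 CPM in the others. The highest Scrublet scores took 7 of the 14 and 8 of the 10, of 7 and 14 such C1ql3/Tll2 nuclei in all. Whether these nuclei were doublets was not tested. The selection lowers Nfia itself in the other nuclei, so that nothing is read from its ratio there. It also takes out UMIs of genes concentrated in the same nuclei, which were a larger share of the control. The selection therefore moves the ratios of such genes too, and no cause is read from them. In the other nuclei Reln was at 116 and 121 CPM, a ratio of 1.04. The ratios there were 0.761 for E130114P18Rik, 0.873 for Ror1, 0.95 for Pcsk5 and 1.71 for Sox6. Rmst, of whose UMIs the nuclei left out held only 14.2% and 3.89%, kept a ratio of 1.92.

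The remaining lower genes were Cmss1, Rpl37, Man2a1, Slc1a2, Anapc1, Rc3h2 and 4933413L06Rik. Cmss1, a ribosome biogenesis gene, was at 2686 and 1792 CPM, 1.5-fold (1.41 to 1.59) lower, with a ratio of 0.730 (0.704 to 0.757) in Htr7/Kit interneurons. Rpl37, a ribosomal protein gene, was 1.87-fold (1.36 to 2.58) lower, with 0.673 (0.553 to 0.819) in Htr7/Kit interneurons. Both were lower in other cells too, Cmss1 at 3528 and 2363 CPM over all other kept nuclei and 4657 and 3245 CPM in microglia, and Rpl37 at 130.2 and 79.7 CPM and 178 and 134 CPM. Man2a1, a mannosidase of the Golgi apparatus, was 2.01-fold (1.39 to 2.90) lower, with 1.03 (0.837 to 1.27) in Htr7/Kit interneurons. Slc1a2, the glutamate transporter GLT-1, was 1.87-fold (1.37 to 2.55) lower, with 0.931 (0.789 to 1.10), and its ratio was 1.01 (0.503 to 2.12) with the rule applied after thinning. With Htr7, Kit and Itga8 at 0, the ratios were 0.134 for Man2a1 and 0.295 for Slc1a2. Anapc1, Rc3h2 and 4933413L06Rik were 1.97-fold, 1.75-fold and 1.63-fold lower. The last had a ratio of 0.967 (0.714 to 1.32) in nuclei with Xist only.

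**Figure D5:**
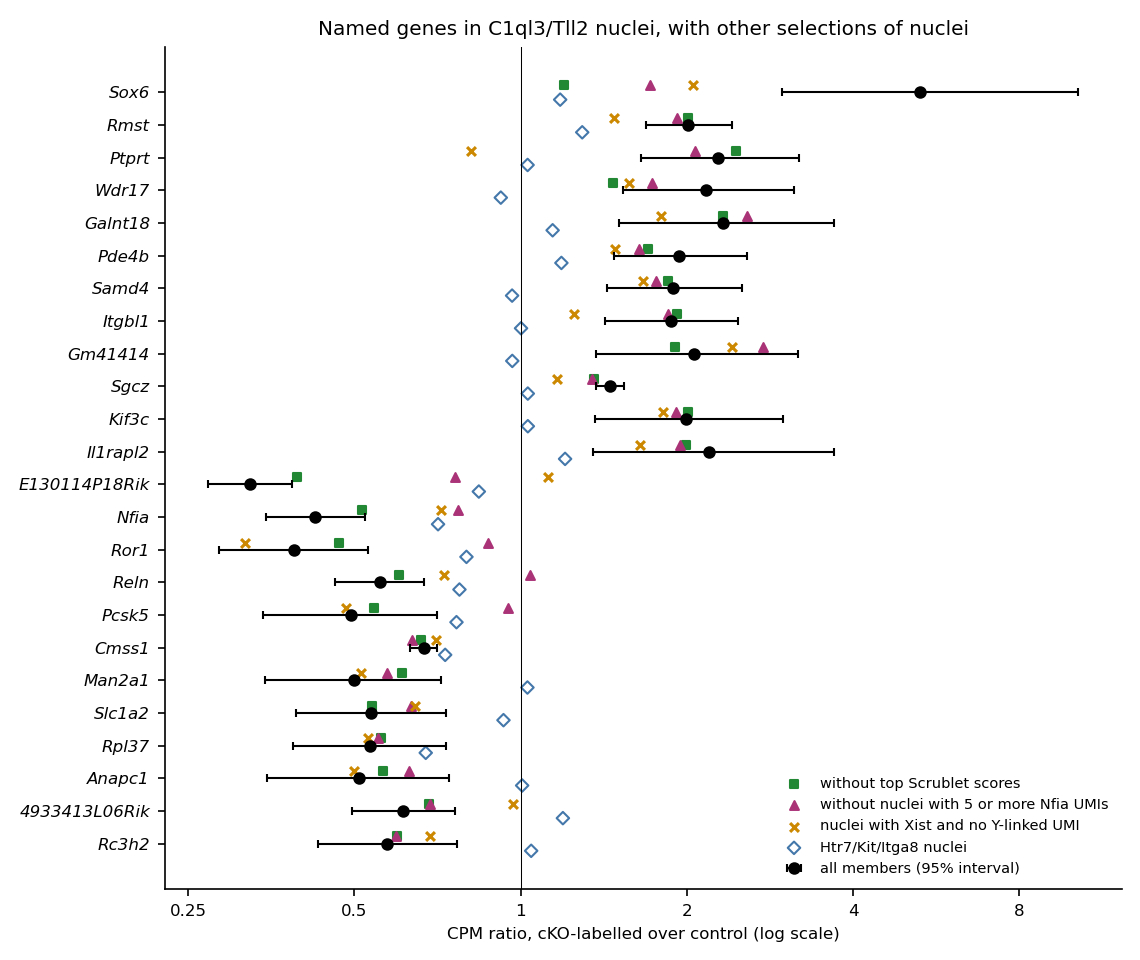
CPM ratio, library labelled cKO over control (x axis, log scale), of the 24 named genes in all C1ql3/Tll2 nuclei (with 95% counting intervals), in 3 selections of them (without top Scrublet scores, without nuclei of at least 5 Nfia UMIs, and with Xist alone) and in Htr7/Kit/Itga8 nuclei (diamonds). Without the Nfia-rich nuclei, a selection that itself moves Nfia and genes concentrated in the same nuclei, Reln moved from 0.556 to 1.04, whereas Rmst moved from 2.01 to 1.92.

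Most genes of GABA and glycine transmission had ratios near 1. Of 10 genes of GABA and glycine synthesis and transport, 3 were in the rule, and the 5 others with at least 100 UMIs all had intervals that held 1. Gad2, a rule gene, had a ratio of 1.04 (0.908 to 1.19). Within nuclei with Slc6a5 alone, Gad2 had a ratio of 0.607 (0.431 to 0.850). Of 14 measured GABA-A and glycine receptor and scaffold genes, 2 had intervals above 1 and none below, against 6.41% above and 6.49% below over all genes, with a median log2 ratio of 0.02. They were Gabrb1, a GABA-A beta subunit at 73.4 and 123 CPM, a ratio of 1.67 (1.24 to 2.28), and Glra2, a glycine receptor subunit at 524 and 650.1 CPM, a ratio of 1.24 (1.11 to 1.40).

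Of 31 interneuron lineage transcription factors, 17 reached 100 UMIs, and 9 of these had intervals below 1 and 2 above, against 6.49% below and 6.41% above over all genes. Their median log2 ratio was -0.17, and only Nfia and Foxp2 differed by more than 1.5-fold. Pax2 was at 781 and 695 CPM, a ratio of 0.890 (0.805 to 0.985), and 0.982 (0.916 to 1.05) in Htr7/Kit interneurons. Tfap2a, an AP-2 factor of GABAergic precursors, was at 172 and 121 CPM, a ratio of 0.704 (0.560 to 0.886). Its paralogue Tfap2b was higher, at 408 and 496 CPM, a ratio of 1.22 (1.07 to 1.39), and 1.23 (1.11 to 1.36) in Htr7/Kit interneurons. Pbx3, Rora, Esrrg, Zic1, Nfib and Meis1 had ratios from 0.773 to 0.884. The Nfia-rich nuclei held 64.7% and 38.3% of Nfib and 66.1% and 36.5% of Meis1 UMIs. In the other nuclei neither was lower in the library labelled cKO, with Nfib at 167 and 193 CPM and Meis1 at 65.1 and 80.3 CPM. No interval is given for these levels, so that no rise is read from them. Leaving out the Nfia-rich nuclei also moves genes concentrated in them, so that no cause is read from these levels either. Lhx1 and Lhx5, LIM homeobox genes of these lineages, had ratios of 0.892 (0.610 to 1.31) and 1.08 (0.641 to 1.86), with few UMIs each.

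Of 17 measured glutamate receptor genes, 6 had intervals below 1 and 2 above, beside the same 6.49% and 6.41%, with a median log2 ratio of -0.12. At 1.5-fold, 1 of the 17 was lower and 0 were higher. Grik5, a kainate receptor subunit, was at 95.1 and 60.9 CPM, a ratio of 0.641 (0.466 to 0.883), Grik1, another, had 0.717 (0.556 to 0.926), and Gria1, an AMPA receptor subunit, 0.789 (0.658 to 0.947). The genes with intervals above 1 were Grik3 at 1.11 (1.01 to 1.22) and Grm8 at 1.17 (1.08 to 1.27).

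The binding partners and relatives of the rule's genes were compared next. Adgrb3, the receptor of C1ql3, was at 1983 and 1928 CPM, a ratio of 0.972 (0.914 to 1.03). C1ql2 and C1ql4 had no UMI and C1ql1 gave 4 and 2. Of 8 measured synaptic organisers and partners outside the rule, 3 had intervals above 1 and none below, beside 6.41% above and 6.49% below over all genes. Those shares are not matched for UMIs, and 0 of the 8 differed by 1.5-fold or more. Nlgn1, a neuroligin, and Grid1, a glutamate receptor of the delta type, were among the 3, at ratios of 1.12 (1.07 to 1.16) and 1.12 (1.00 to 1.26). Tll1, the paralogue of Tll2, was at 319 and 316 CPM, a ratio of 0.992 (0.849 to 1.16), and all 7 measured tolloid and BMP genes outside the rule had intervals that held 1. C1ql3 itself had a ratio of 0.899 (0.781 to 1.04) and Tll2 of 1.20 (0.994 to 1.45), levels that the rule bounds from below.

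Among R7 RGS proteins and GIRK channels, Rgs6 had a ratio of 1.14 (1.04 to 1.24) and Rgs7 of 0.988 (0.900 to 1.09). Kcnj3, a GIRK channel subunit, was at 233 and 161 CPM, a ratio of 0.690 (0.566 to 0.841), and Gabbr2, a GABA-B receptor subunit, at 66.2 and 40.6 CPM, a ratio of 0.614 (0.415 to 0.907). In Htr7/Kit interneurons the ratios were 0.855 (0.752 to 0.973) for Rgs6 and 0.801 (0.707 to 0.908) for Kcnj3.

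The larger lists are set beside 6.41% of all genes above 1 and 6.49% below, shares that are not matched for UMIs. Of 29 measured voltage-gated channel genes 4 had intervals above 1 and 3 below, among them Kcnip4, a potassium channel partner, at 1.33 (1.25 to 1.42) and Cacna2d1, a calcium channel subunit, at 0.620 (0.488 to 0.789). Of 22 guidance genes 1 was above and 4 below, with the netrin receptor genes Unc5d at 1.29 (1.16 to 1.44) and Dcc at 0.879 (0.832 to 0.929). In Htr7/Kit interneurons Unc5d and Dcc had ratios of 1.55 and 0.728. Of 25 cadherins and contactins 4 were above and 5 below, and of 15 genes of migration and trophic signals 4 were above and 2 below. Erbb4, a neuregulin receptor in the last list, had a ratio of 0.702 (0.640 to 0.770), and the Nfia-rich nuclei held 60.5% and 32.8% of its UMIs. In the other nuclei it was at 521 and 529 CPM, levels that the selection itself moves for a gene concentrated in the Nfia-rich nuclei. Of 12 neuronal maturation genes, Map2 was above at 1.21 (1.10 to 1.33) and Syt1 below at 0.931 (0.883 to 0.981).

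Markers of other cells were present at low levels, and their part in these differences was not tested. Granule lineage markers summed to 478 and 377 CPM, a ratio of 0.788 (0.690 to 0.900), and 17.0% and 17.0% of nuclei held at least 5 of their UMIs. Barhl1, a granule lineage factor, gave 15 and 2 UMIs, Pax6 43 and 38, and Atoh1 none. Cell cycle genes summed to 187 and 144 CPM. Bergmann glia and astrocyte markers summed to 317 and 361 CPM, and Slc1a3, the transporter GLAST, had a ratio of 1.74 (1.19 to 2.61). Microglia markers summed to 212 and 227 CPM, P2ry12 among them, which lies within an intron of Med12l, with 1 and 7 UMIs of Csf1r. Vascular markers gave 1 and 21 UMIs, oligodendrocyte markers 30.1 and 34.8 CPM, and cerebellar nuclei and unipolar brush cell markers at most 35.6 CPM. The Purkinje cell list summed to 2433 and 2547 CPM, most of it Dab1 at 2047 and 2080 CPM, with Skor2 at 1 and 0 UMIs.

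The sex makeup of the nuclei was read from Xist and Y-linked genes. Xist without a Y-linked UMI was seen in 48.1% (38.3 to 58.0%) of control nuclei and 61.2% (53.8 to 68.2%) of those labelled cKO. Among such nuclei the ratio was 1.47 for Rmst and 1.81 for Kif3c, and among the 35 and 51 nuclei in which only Y-linked genes were seen 3.29 and 2.01. Ptprt and E130114P18Rik had ratios of 0.812 and 1.12 in nuclei with Xist only and of 3.91 and 0.193 in those with Y-linked genes only, a difference that was not tested.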

How the data were processed

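Single-nucleus 3′ libraries (10x Genomics) were made by the authors, 1 from 12 pooled P1 cerebella of each genotype. The deposited matrices hold raw counts, UMIs per gene and barcode, which the submitters' processing notes credit to Cell Ranger 7.0.1 and mm10. The authors' mitochondrial limit of 25% would keep 11797 of 11803 barcodes, so that later filtering is not in the files. No correction for free RNA was made. The members and gene lists were chosen with earlier results of these data known.

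UMIs were summed over the chosen nuclei of a library and scaled by their total, 830904 UMIs in the control and 1378279 in the library labelled cKO. Exact 95% intervals (Poisson for levels, Clopper-Pearson for shares, conditional binomial for ratios, scipy 1.17.1) cover counting error only, and with 1 library a group no p-value was computed. Genes with at least 100 UMIs were compared, with mitochondrial genes, Xist and Y-linked genes left out. Named genes were the 12 in each direction whose interval lay farthest from 1, the 15 with the highest CPM ratio over another class at 50 CPM or more in C1ql3/Tll2 nuclei, and genes of the lists. Scrublet (scanpy 1.11.5) marked 1 control barcode at its automatic limit and so did not work there. The highest scores, 0.8% of barcodes for each 1000 barcodes, were used instead, which took 7 and 14 chosen nuclei. None was removed from the main values. The libraries shared 9 barcodes. Alternatives changed the rule, the scaling, the filters and the nuclei used. Gene positions come from GENCODE (GRCm38). The computation was tested on simulated data. Some genes of the lists are not reported here by name.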

Additional observations from a re-analysis of the deposited data

How the results depend on the processing

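With 1 pooled library a group, there was no replicate to leave out, and the ratios hold no error between animals. No paired analysis was possible because each group is 1 library without a replicate number. In all 18 alternatives were tried, of which 3 were chosen after the data were seen: leaving out the deepest nuclei, those with at least 5 Nfia UMIs, or each gene's top nucleus. The cause of the changes was not tested.

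The 83 higher and 70 lower of 3992 genes became 7 and 5 at 2-fold. The counts were 7 and 8 with at least 300 UMIs and 297 and 233 with at least 50 UMIs. They were 55 and 39 in nuclei with Xist alone, and 23 and 24 with the rule applied after thinning to 2000 UMIs. The number of genes compared changed with the nuclei and the UMI limit. Counts under such settings are therefore not shares of the same genes, and no rise or fall is read from them. With Htr7, Kit and Itga8 at 0, 47 genes were higher, and the ratio of shares was 0.992 of GABAergic and 1.43 of kept nuclei. Of 336 ratios of the 24 named genes, 324 stayed on their side of 1, and 14 genes did so under all 14 alternatives. Some alternatives could hardly move a ratio. A limit of at least 1500 genes left that of Cmss1 at 0.667, and median of ratios scaling gave 0.669. The ratios that changed side were, with the rule applied after thinning, Il1rapl2 at 0.262, Pde4b at 0.814, Sgcz at 0.938, Slc1a2 at 1.01 and Sox6 at 0.590. With Xist alone they were E130114P18Rik at 1.12 and Ptprt at 0.812, and with a Y-linked UMI alone Il1rapl2 at 0.463 and Pcsk5 at 1.08. Reln was at 1.04 without Nfia-rich nuclei, Il1rapl2 at 0.580 without the deepest nuclei, and Wdr17 at 0.915 with Htr7, Kit and Itga8 at 0.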
